A study of Mus musculus with 20 samples.

Results

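The 9 genes described here are the alcohol dehydrogenases Adh1, Adh4 and Adh5, the aldehyde dehydrogenases Aldh1a1 and Aldh3a2, the retinol and retinal oxidoreductases Rdh7 and Dhrs3, and the retinoic acid response genes Cyp26a1 and Rarb. They were taken by symbol from tables of 34933 named genes, as enzymes that could oxidise isoprenoid alcohols together with genes that respond to retinoic acid. All 9 symbols were present, and all 9 passed the filter on low counts, which left 12789 genes for testing. Whole livers of WT mice with diet-induced obesity were profiled by sequencing of poly(A) RNA. One group was given vehicle, another rosuvastatin, another geranylgeraniol (GGOH) and the last rosuvastatin together with GGOH (the combination), with 5 mice in each of the 4 groups and 1 library per mouse. The diet, doses, duration, sex and age of the mice are not given in the sources used here. All 4 groups were obese, so no comparison includes lean liver.

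Rosuvastatin inhibits HMG-CoA reductase and so limits the mevalonate pathway, which supplies cholesterol and the isoprenoid diphosphates. GGOH is the alcohol of geranylgeranyl diphosphate, one of those isoprenoids. Alcohol and aldehyde dehydrogenases oxidise alcohols in steps to aldehydes and acids, and the same enzyme families turn retinol (vitamin A) into retinal and then into retinoic acid. The liver stores most of the body's retinol and is the main site of alcohol oxidation. Retinoic acid acts through nuclear receptors, which raise transcription of Cyp26a1, the cytochrome P450 that degrades retinoic acid, and of Rarb, itself a retinoic acid receptor.

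Library depth lay between 8548120 and 18373913 estimated counts (median 15697884). The mitochondrial share of counts was 27.9% and 29.2% in 2 libraries, combination mice 2 and 3, and 8.06 to 17.1% in the other 18. Libraries also differed by GC content: the rank correlation between a gene's deviation from its mean and its GC content was above 0 in 10 of 10 libraries with rosuvastatin (0.051 to 0.323) and in 3 of 10 without it (-0.378 to 0.328). Hepatocyte markers, among them Alb and Ttr, summed to between 24400 and 70300 TPM (a level scaled for transcript length and depth), and none of the 8 was at 0 in every library. Of the pancreatic acinar markers, Cpa1, Ctrb1 and Pnlip were at 0 in every library. Of the 7 adipocyte markers, only Lep was at 0 in every library, and the list summed to between 119 and 431 TPM. Stellate cell markers, genes of the cells that store retinol, summed to 182 to 372 TPM with vehicle and 215 to 396 TPM with rosuvastatin. They summed to 259 to 399 TPM with GGOH and 183 to 364 TPM with the combination, and none of the 11 passed the test in any comparison. In whole tissue, fewer cells of a type and less RNA per cell cannot be told apart.

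The 9 genes fell into a high set of 7 and a low set of 2 in length-scaled level. Adh1, the classical liver alcohol dehydrogenase, had a median of 843 TPM over the 20 libraries (range 515 to 1380). Aldh1a1, which oxidises retinal to retinoic acid and other aldehydes to acids, had a median of 731 TPM (466 to 1150). Rdh7, a short-chain dehydrogenase that acts on retinol and steroids, had a median of 578 TPM (358 to 858). These 3 ranked 132, 149 and 196 by median among the 34933 genes, so they belonged to the abundant liver transcripts.

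Aldh3a2, the microsomal fatty aldehyde dehydrogenase, had a median of 214 TPM (110 to 316). Adh5, the glutathione-dependent formaldehyde dehydrogenase, had a median of 183 TPM (98.5 to 256). Adh4, which oxidises retinol and longer alcohols as well as ethanol, had a median of 118 TPM (69.7 to 197). Dhrs3, which reduces retinal back to retinol, had a median of 68.7 TPM (42.8 to 121).

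The 2 genes classed here as retinoic acid response genes were far lower. Rarb had a median of 0.706 TPM (0.296 to 1.57) and Cyp26a1 a median of 0.606 TPM (0.111 to 1.92). Neighbours in the order were separate in every library for Rdh7 over Aldh3a2, Adh5 over Adh4 and Dhrs3 over Rarb. Adh4 lay above Dhrs3 in 18 of 20 libraries and Aldh1a1 above Rdh7 in 16 of 20. The order was not separated for Adh1 over Aldh1a1 (12 of 20), Aldh3a2 over Adh5 (12 of 20) or Rarb over Cyp26a1 (11 of 20).

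**Figure D1:**
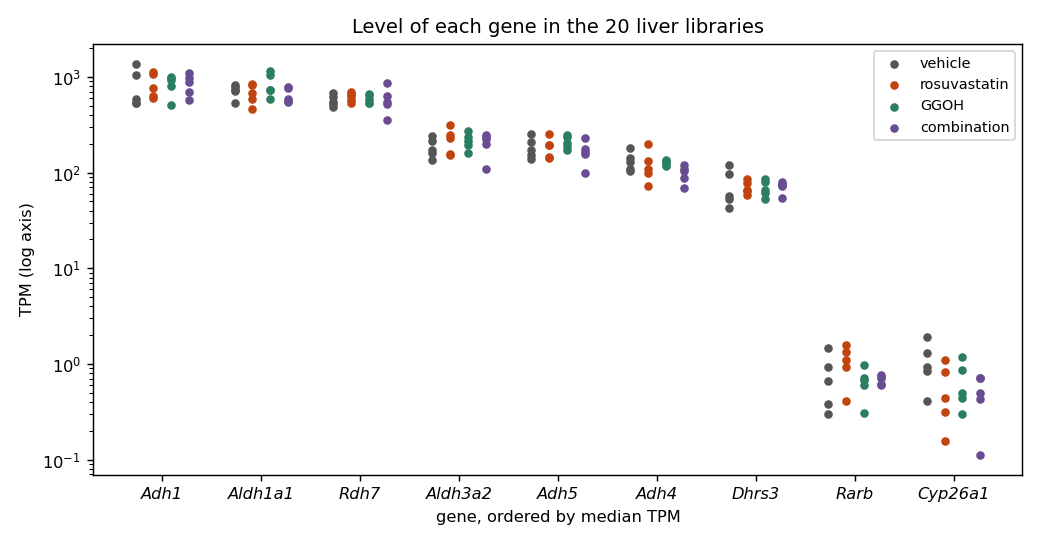
Level of each of the 9 genes in TPM (vertical log axis) in the 20 libraries, 1 point per library, coloured by group; genes are ordered by median on the horizontal axis. The 7 enzymes from Adh1 to Dhrs3 have medians between 68.7 and 843 TPM, while Rarb and Cyp26a1 have medians under 1 TPM.

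The values that follow are CPM (estimated counts scaled by TMM to a common library size), which compare 1 gene between libraries and not genes with each other. Differences are log2 fold changes with their standard error, from edgeR's quasi-likelihood fit over all 20 libraries and 12789 genes, and adjusted p is the Benjamini-Hochberg value over all genes tested. The p-values set differences between groups against the spread of mice within groups. Nothing in the labels says how the mice were housed or processed. A cage or batch shared by a group could not be told apart from its treatment.

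The 3 alcohol dehydrogenases lie in 1 cluster on chromosome 3 (GRCm38, chr3:138217760-138455499, 238 kb), in the order Adh7, Adh1, Adh6a, Adh6b, Adh4 and Adh5, all on the plus strand. Adh1 (ENSMUSG00000074207, chr3:138260991-138290698) ran from 746 to 1280 CPM over the 20 libraries. Its group means were 1030 ± 162 CPM (SD, n = 5) with vehicle and 988 ± 157 CPM with rosuvastatin, and the 4 groups overlapped throughout. Adh7, the alcohol dehydrogenase of stomach and other epithelia, had a median of 3.53 TPM in these livers, Adh6a a median of 0 TPM and Adh6b a median of 0.0854 TPM.

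Adh4 (ENSMUSG00000037797, chr3:138415466-138430892) stood at 131, 212, 120, 150 and 173 CPM in vehicle mice 1 to 5. In the rosuvastatin mice it stood at 150, 134, 157, 105 and 65.9 CPM. In the GGOH mice the values were 159, 125, 128, 147 and 148 CPM, and in the combination mice 139, 82.4, 85.6, 135 and 98.5 CPM. The 5 lowest values all came from mice given rosuvastatin, 2 without and 3 with GGOH, while the rosuvastatin mice 1, 2 and 3 and combination mice 1 and 4 lay inside the range of the mice without it.

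Adh5 (ENSMUSG00000028138, chr3:138443093-138455499) stood at 254, 348, 255, 267 and 328 CPM with vehicle. With rosuvastatin it stood at 301, 229, 283, 226 and 229 CPM. With GGOH the values were 396, 256, 294, 382 and 254 CPM, and with the combination 272, 156, 200, 269 and 280 CPM. All 10 libraries without rosuvastatin were at or above 254 CPM, and 5 of the 10 libraries with it were below that. The lowest value, 156 CPM, was in combination mouse 2, one of the libraries with a high mitochondrial share.

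Aldh1a1 (ENSMUSG00000053279, chr19:20492715-20643465) stood at 1030, 2180, 1200, 1380 and 2080 CPM with vehicle. With rosuvastatin it stood at 1220, 1030, 1250, 1380 and 1290 CPM. With GGOH it stood at 1320, 1340, 2120, 2310 and 1470 CPM, and with the combination at 1230, 1210, 1360, 1510 and 921 CPM. In 4 libraries, vehicle mice 2 and 5 and GGOH mice 3 and 4, it exceeded 2000 CPM, and in the other 16 it did not pass 1510 CPM. Those 4 libraries had GC rank correlations between -0.378 and -0.271. Vehicle mouse 4 (-0.357) and GGOH mouse 1 (-0.311) lay in the same GC range, with Aldh1a1 at 1380 and 1320 CPM. A GC correction is given with the rosuvastatin comparison.

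Aldh3a2 (ENSMUSG00000010025, chr11:61223417-61267464, minus strand) ran from 339 to 625 CPM. It oxidises long-chain aldehydes, among them those formed from isoprenoid alcohols such as farnesol and phytol. Rdh7 (ENSMUSG00000040134, chr10:127884028-127888817, minus strand) ran from 598 CPM in combination mouse 2 to 1200 CPM in vehicle mouse 5. Rdh7 shares 20.3% of its 31-base words with other genes, mostly the pseudogene Rdh18-ps, so its reads may have been split between them and its value is uncertain. Aldh1a1 shares 5.7% with Aldh1a7. Dhrs3 (ENSMUSG00000066026, chr4:144892827-144928209) varied least of the 9 in CPM, from 69.9 to 104 CPM, a 1.49-fold range. In TPM its range was 2.82-fold, and Rdh7 had the smallest range of the 9, 2.4-fold.

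**Figure D2:**
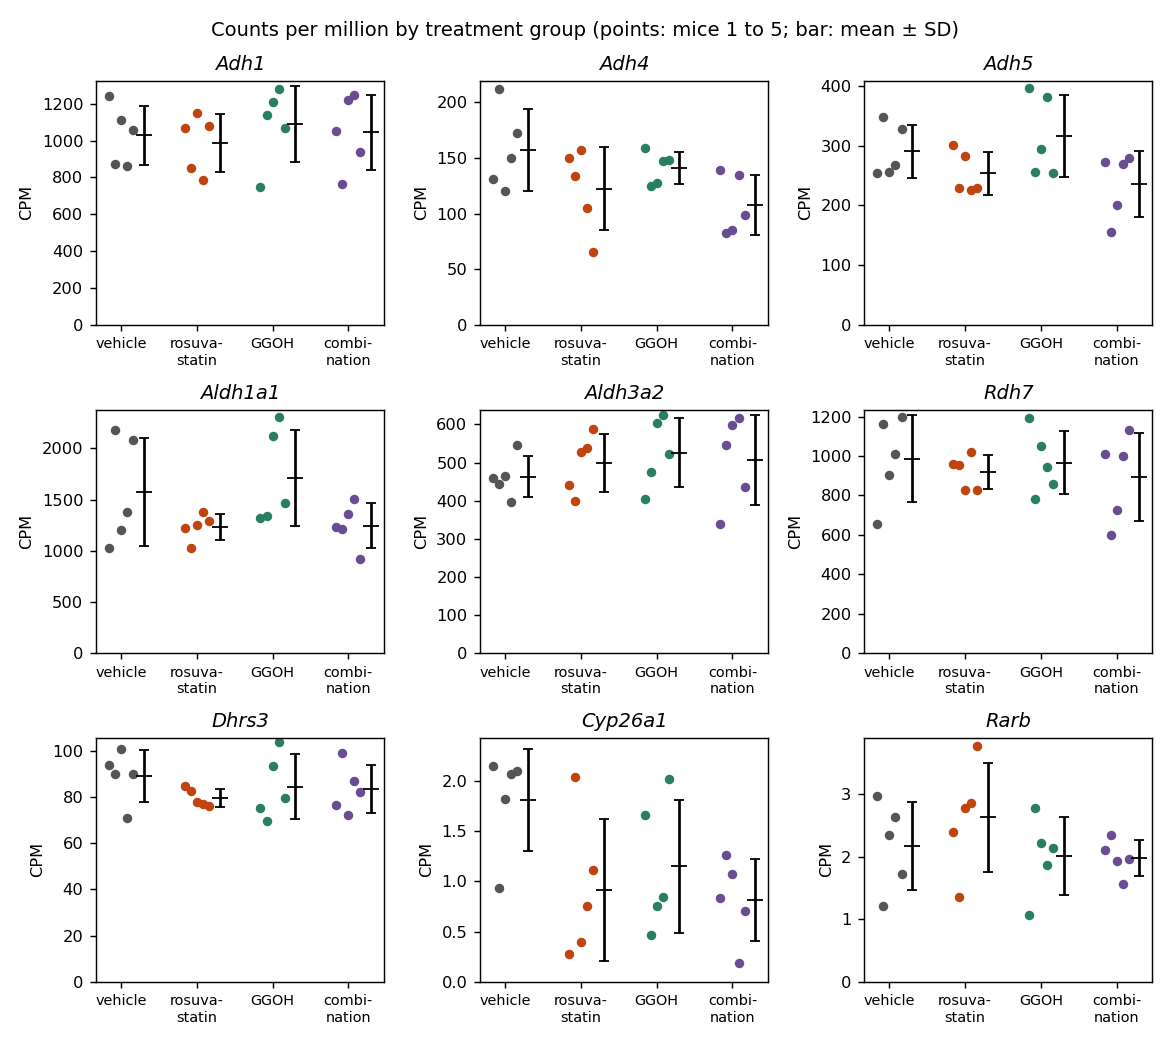
CPM (vertical axes, from 0) of the 9 genes in the 4 treatment groups; points are mice 1 to 5 and the bar beside them is the mean ± SD. The highest value lies in a mouse without rosuvastatin for 8 of the 9 genes and in rosuvastatin mouse 5 for Rarb, and no gene has 2 groups that do not overlap.

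Cyp26a1 and Rarb are known targets of retinoic acid receptors. Their promoters are shown for the direct repeat with a 5-base spacer (DR5) to which those receptors bind. The sequences are from RefSeq (GRCm38.p6), written 5′ to 3′ on the strand of the gene, with the half-sites in capitals. The Cyp26a1 stretch is chr19:37697731-37697807 (plus strand) and the Rarb stretch chr14:16575477-16575574 (minus strand).
Cyp26a1: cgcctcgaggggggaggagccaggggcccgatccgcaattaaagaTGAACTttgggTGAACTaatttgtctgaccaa
Rarb: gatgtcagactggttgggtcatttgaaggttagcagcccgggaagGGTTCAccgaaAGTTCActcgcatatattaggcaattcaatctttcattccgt
The search took any pair of the half-sites AGGTCA (the consensus), its variant AGTTCA, its variant GGGTCA and its variant GGTTCA in the same direction, on both strands, in windows from 250 bases before to 50 after each start. It found the repeat at -32 to -16 of Cyp26a1, on the strand opposite to the gene, and at -53 to -37 of Rarb. It was in 32 of 32851 RefSeq promoter windows (0.0974%) and in no window of the other 7 genes. The same repeat with a 2-base spacer was in 0.268% of all windows and in none of the 9. A match describes letters in a window, not a bound site.

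Cyp26a1 (ENSMUSG00000024987, chr19:37697798-37701536) rested on few reads, between 3 and 45 counts per library. It stood at 2.15, 0.934, 1.82, 2.07 and 2.1 CPM with vehicle. With rosuvastatin it stood at 0.281, 2.04, 0.397, 0.755 and 1.11 CPM. With GGOH the values were 1.66, 0.461, 0.759, 0.846 and 2.02 CPM, and with the combination 0.831, 1.26, 1.07, 0.188 and 0.704 CPM. Of the 5 vehicle mice, 4 were at or above 1.82 CPM, a level reached by 1 rosuvastatin mouse, 1 GGOH mouse and no combination mouse. Rarb (ENSMUSG00000017491, chr14:16430839-16819156, minus strand) ran from 1.07 CPM in GGOH mouse 1 to 3.76 CPM in rosuvastatin mouse 5, on 11 to 68 counts.

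None of the 9 genes changed in any comparison past an adjusted p of 0.05. Over 8 comparisons the 9 genes gave 72 fits by edgeR's quasi-likelihood test, of which 7 had an unadjusted p under 0.05, and the smallest adjusted p was 0.327. Of the 7, 4 were in rosuvastatin averaged over GGOH, where 14.4% of all genes reached that level. Another 2 were in the combination against vehicle (5.5% of all genes) and 1 in the combination against GGOH (14%). These comparisons share mice, so the 7 are not separate results. DESeq2 called none of the 9 either. An edgeR test for any difference among the 4 groups gave adjusted p values of at least 0.797 for all 9. Over all genes that test called 1, Cyp2b10 (0.00782% of those tested), and 5.28% had an unadjusted p under 0.05. In the pairwise comparisons, exact two-sided permutation tests of log2 CPM gave a smallest p of 0.0238, against a smallest possible 0.00794 for 5 against 5, and none of the 45 pairs of groups was free of overlap, a state reached by 0.516% of all genes for rosuvastatin against vehicle, 0.43% for GGOH against vehicle, 0.266% for the combination against rosuvastatin, 0.758% for the combination against vehicle and 2.26% for the combination against GGOH.

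The clearest pattern was with rosuvastatin, taken over both GGOH states (10 libraries against 10), in which Adh4, Adh5, Aldh1a1 and Cyp26a1 had lower means. Adh4 averaged 115 ± 31.6 CPM (SD, n = 10) with rosuvastatin and 150 ± 27.5 CPM without it. Adh5 averaged 244 ± 44.6 CPM with it and 303 ± 56.1 CPM without. Aldh1a1 averaged 1240 ± 170 CPM with it and 1640 ± 474 CPM without. Cyp26a1 averaged 0.863 ± 0.548 CPM with it and 1.48 ± 0.656 CPM without. These 4 of 9 were lower at an unadjusted p under 0.05, where 7.97% of all genes tested were (14.4% in either direction), and 7 of 9 were lower in any degree, where 48.2% of all genes were.

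By edgeR's quasi-likelihood test the log2 difference of Adh4 was -0.38 ± 0.15 (95% interval -0.7 to -0.06, edgeR adjusted p = 0.328). For Adh5 it was -0.31 ± 0.13 (-0.58 to -0.04, edgeR adjusted p = 0.331). For Aldh1a1 it was -0.4 ± 0.16 (-0.74 to -0.07, edgeR adjusted p = 0.327). For Cyp26a1 it was -0.74 ± 0.35 (edgeR adjusted p = 0.344). So the 4 differences were 2 to 3 times their error in size, and none was a call over all genes. Exact permutations of the rosuvastatin label within each GGOH state (63504 assignments, two-sided) gave p = 0.015 for Adh4, 0.0206 for Adh5, 0.03 for Aldh1a1 and 0.0417 for Cyp26a1, unadjusted. The same permutations gave 0.612 for Adh1, 0.889 for Aldh3a2, 0.316 for Dhrs3, 0.472 for Rarb and 0.429 for Rdh7. They use the same contrast and libraries by which the 4 genes were picked, so they are not separate support. Adh4 lay below the median of the 10 libraries without rosuvastatin in 8 of the 10 with it, Adh5 in 8, and Aldh1a1 and Cyp26a1 each in 9. On the same count Dhrs3 stood at 9 of 10, Adh1 at 7, Rdh7 at 6, Rarb at 5 and Aldh3a2 at 4, so it did not set the 4 genes apart.

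Correcting the counts for GC content and length brought the Adh4 difference to -0.15 and that of Aldh1a1 to -0.17, while Adh5 stood at -0.28 and Cyp26a1 at -0.89. On the deposited TPM (limma on log2(TPM + 1)) the differences were -0.29 for Adh4, -0.18 for Adh5, -0.23 for Aldh1a1 and -0.27 for Cyp26a1, with adjusted p between 0.647 and 0.691 and none at an unadjusted p under 0.05. The TPM fits had no TMM scaling, and on log2(TPM + 1) the median of all genes was 0.08, against 0.01 in the main fit. The pseudocount of 1 shrinks a gene as low as Cyp26a1, which stood at -0.63 on log2(TPM + 0.1). Leaving out vehicle mouse 1 and combination mice 2 and 3 gave -0.3 for Adh4, -0.22 for Adh5, -0.47 for Aldh1a1 and -0.93 for Cyp26a1. With quality weights per library, Aldh1a1 was the one gene of the 9 to pass, at -0.45 with an adjusted p of 0.043, in a fit that called 1594 genes.

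The other 5 genes had differences of under 1 standard error: Adh1 -0.06 ± 0.13, Aldh3a2 0.03 ± 0.13, Rdh7 -0.11 ± 0.14, Dhrs3 -0.09 ± 0.1 and Rarb 0.11 ± 0.2. The 95% intervals ran from -0.34 to 0.22 for Adh1 and from -0.24 to 0.29 for Aldh3a2, so changes of that size remain possible. For Dhrs3 the interval was -0.29 to 0.11.

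**Figure D3:**
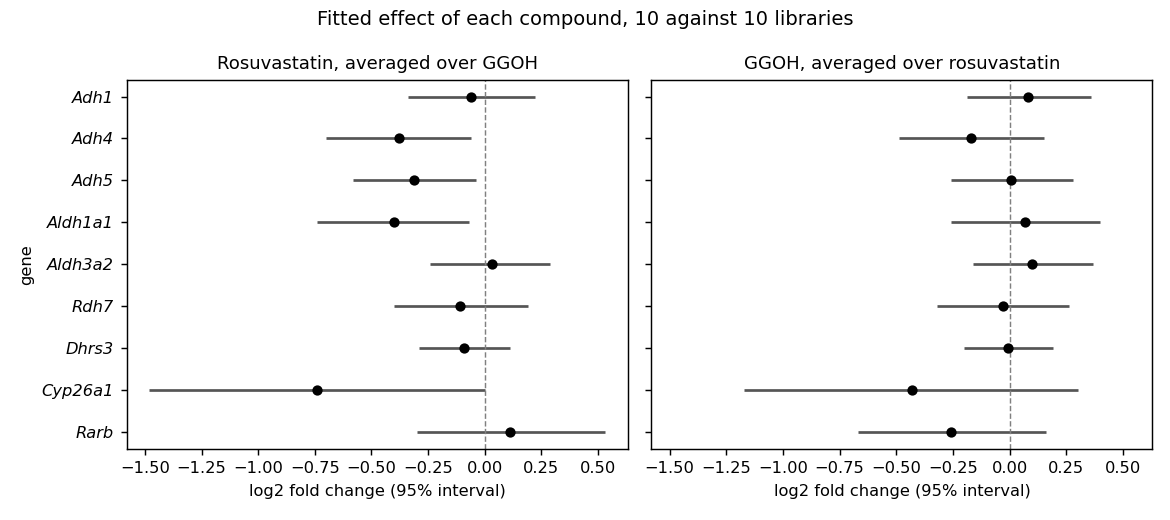
Log2 fold changes (horizontal axes, points) with 95% intervals (lines) of the 9 genes for rosuvastatin averaged over GGOH (left) and for GGOH averaged over rosuvastatin (right), each 10 libraries against 10. On the left the intervals of Adh4, Adh5 and Aldh1a1 lie below 0 and that of Cyp26a1 ends at it; on the right all 9 cross 0.

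Each compound was also set against vehicle alone, comparisons that share the 5 vehicle mice. Rosuvastatin alone against vehicle asked whether the statin moved these genes without GGOH. Cyp26a1 differed by -0.99 ± 0.49 (edgeR adjusted p = 0.973), Adh4 by -0.36 ± 0.22, Aldh1a1 by -0.35 ± 0.23, Adh5 by -0.19 ± 0.19 and Rarb by 0.26 ± 0.28. None of the 9 had an unadjusted p under 0.05, where 3.69% of all genes did, and 7 of 9 were lower, where 52.7% of all genes were. Single mice weighed on these values: Adh4 stood at -0.18 without rosuvastatin mouse 5, Aldh1a1 at -0.17 without vehicle mouse 2, Adh5 at -0.1 without vehicle mouse 2 and Cyp26a1 at -1.49 without rosuvastatin mouse 2. On log2(TPM + 1) Adh4 stood at -0.18, Aldh1a1 at -0.09 and Adh5 at 0.02. The median of all genes in that TPM fit was 0.12, against -0.02 in the main fit. GC and length offsets gave Adh4 -0.23 and Aldh1a1 -0.17, and quality weights gave Adh4 -0.57.

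GGOH alone against vehicle gave differences smaller than 2 standard errors for all 9 genes. Cyp26a1 differed by -0.68 ± 0.49, Aldh3a2 by 0.19 ± 0.18, Adh4 by -0.15 ± 0.22, and Adh5 and Aldh1a1 each by 0.12. None had an unadjusted p under 0.05, where 2.86% of all genes did, and 5 of 9 were lower, where 53.1% of all genes were. With quality weights Cyp26a1 stood at -1.03. Averaged over rosuvastatin, GGOH gave Cyp26a1 -0.43 ± 0.35, Rarb -0.26 ± 0.2, Adh4 -0.17 ± 0.15, Aldh3a2 0.1 ± 0.13, Adh1 0.08 ± 0.13 and Aldh1a1 0.07 ± 0.16. Cyp26a1 stood at -0.18 without rosuvastatin mouse 2 and at -0.9 with quality weights, Rarb at -0.17 without rosuvastatin mouse 5 and Adh4 at -0.11 without vehicle mouse 2. None reached an unadjusted p under 0.05, where 1.7% of all genes did, and 5 of 9 were lower, where 51.6% of all genes were. The 1 gene called over all genes was Cyp2b10 (adjusted p = 0.0155 by edgeR). The 95% interval for Adh5 ran from -0.26 to 0.28, and for Rdh7 from -0.32 to 0.26.

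The combination against vehicle gave the largest difference of any pairwise comparison for Cyp26a1 and for Adh4. Cyp26a1 stood at 0.443 times its vehicle level in the fit, a log2 difference of -1.17 ± 0.5 (edgeR adjusted p = 0.817), and stood at -0.91 without combination mouse 4, where it rested on 3 counts. Adh4 differed by -0.54 ± 0.22 (edgeR adjusted p = 0.817), Aldh1a1 by -0.33 ± 0.23 and Adh5 by -0.3 ± 0.19. Adh4 stood at -0.38 without vehicle mouse 1 and combination mice 2 and 3, -0.38 with GC and length offsets and -0.43 on log2(TPM + 1). In those alternative fits it did not reach an unadjusted p under 0.05. Aldh1a1 stood at -0.17 without vehicle mouse 2, -0.12 with GC and length offsets and -0.16 on log2(TPM + 1). Adh5 stood at -0.19 without combination mouse 2, -0.11 without vehicle mouse 1 and combination mice 2 and 3, and -0.17 on log2(TPM + 1). The median of all genes on log2(TPM + 1) was 0.09, against 0.0059 in the main fit. In the main fit Cyp26a1 and Adh4, 2 of the 9, were lower at an unadjusted p under 0.05, where 2.81% of all genes were (5.5% in either direction). In any degree 7 of 9 were lower, where 49.2% of all genes were.

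The combination against GGOH asks what the statin did in mice also given GGOH. In the edgeR fit all 9 genes were lower in any degree, where 49.1% of all genes were. By mean TPM, Adh1 (846 against 845), Dhrs3 (71 against 69.1) and Rarb (0.681 against 0.654) were higher in the combination, and the rest lower. Adh5 differed by -0.43 ± 0.19 (edgeR adjusted p = 0.348), Aldh1a1 by -0.46 ± 0.23 and Adh4 by -0.39 ± 0.22. GC and length offsets gave Adh4 -0.07 and Aldh1a1 -0.17. Without vehicle mouse 1 and combination mice 2 and 3, Adh4 stood at -0.19 and Adh5 at -0.21, and with quality weights at -0.23 and -0.27. One of 9 was lower at an unadjusted p under 0.05, where 5.04% of all genes were (14% in either direction). The remaining 6 had differences between -0.49 and -0.02, with Cyp26a1 at -0.49 ± 0.51. The combination against rosuvastatin, which asks what GGOH did on top of the statin, gave Rarb -0.41 ± 0.28 (-0.25 without rosuvastatin mouse 5) and Cyp26a1 -0.18 ± 0.51, with none of 9 at an unadjusted p under 0.05, where 1.69% of all genes were, and 5 of 9 lower in any degree, where 47.4% of all genes were. The interaction, which asks whether the statin difference depended on GGOH, was under 1 standard error for all 9 genes, and none of 9 had an unadjusted p under 0.05, where 2.89% of all genes did, and 7 of 9 were below 0, where 47.7% of all genes were. Its largest value was for Cyp26a1 at 0.5 ± 0.71.

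The wider pathway showed no call either. Of 100 distinct genes on 7 lists, 79 were tested and none passed an adjusted p of 0.05 in any of the 8 comparisons. Of the other aldehyde dehydrogenases, the smallest p was that of Aldh8a1, which oxidises retinal among other aldehydes, in rosuvastatin averaged over GGOH, at -0.34 ± 0.12 (edgeR adjusted p = 0.327). Its difference was -0.34 in each of rosuvastatin against vehicle, the combination against vehicle and the combination against GGOH. Aldh1l1, a folate enzyme, differed by -0.42 ± 0.17 in GGOH against vehicle, and Aldh1a7 by -0.17 ± 0.18 in the combination against rosuvastatin. Of the 15 aldehyde dehydrogenases tested, 11 were lower and 4 higher with rosuvastatin against vehicle, where 52.7% of all genes were lower. Their median was -0.16, against -0.02 for all genes. With rosuvastatin averaged over GGOH, 7 of the 15 were lower and 8 higher (median 0.04), where 48.2% of all genes were lower. In the combination against GGOH, 6 were lower and 9 higher (median 0.09), so the lean was not seen in every statin comparison. Of the other alcohol dehydrogenases 3 were tested: the pseudogene Adh6-ps1 differed by -0.47 ± 0.27 with rosuvastatin against vehicle, and Adhfe1, a hydroxyacid oxidoreductase, by 0.09 ± 0.13 with GGOH.

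Among 17 other retinol and retinal oxidoreductases tested, Aox3, an aldehyde oxidase that can oxidise retinal, differed by -0.74 ± 0.22 with GGOH against vehicle (edgeR adjusted p = 1) and by -0.56 ± 0.22 with rosuvastatin against vehicle, comparisons that share the vehicle mice. Akr1c6 differed by -0.59 ± 0.3 in the combination against GGOH and Rdh11, a retinal reductase, by -0.69 ± 0.34 in the combination against rosuvastatin. Rdh11 differed by 0.8 ± 0.34 in rosuvastatin against vehicle and by 0.11 ± 0.34 in the combination against vehicle, comparisons that share mice. Dhrs9 differed by 1.32 ± 0.53 in the combination against vehicle, at a median of 0.155 TPM. With rosuvastatin averaged over GGOH, 13 of the 17 were lower, where 48.2% of all genes were. Their median was -0.17, against 0.01 for all genes.

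The storage and transport genes included the most abundant of the lists, Ttr (median 4940 TPM) and Rbp4 (4270 TPM), which carry retinol in blood. Of the 11 tested, Dgat1, which makes triglyceride and can esterify retinol, had the smallest p in both comparisons with vehicle of single compounds, at 0.3 ± 0.14 for rosuvastatin and 0.25 ± 0.14 for GGOH, and 0.37 ± 0.14 for the combination (edgeR adjusted p = 0.817). Ces1d, a carboxylesterase that hydrolyses lipid esters, differed by 0.31 ± 0.24 in the combination against rosuvastatin, and Lrat, which esterifies retinol in stellate cells, by -0.23 ± 0.18 in the combination against GGOH.

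Of the 11 retinoid receptors and coregulators, 10 were lower with GGOH against vehicle (median -0.39, against -0.02 for all genes), where 53.1% of all genes were. In the combination against GGOH, 10 were higher (median 0.53, against 0.0094 for all genes), where 49.1% of all genes were lower. These 2 comparisons share the GGOH mice. GC rank correlations ran from -0.378 to 0.134 in the GGOH libraries and from 0.0701 to 0.221 in the combination libraries. The part of GC content in these differences was not tested. Ncoa2, a coactivator, differed by -0.5 ± 0.27 with GGOH against vehicle. Ncoa3 differed by 0.47 ± 0.33 in the combination against vehicle, Rxrg by -0.37 ± 0.17 in the combination against rosuvastatin, and Rarg by 0.41 ± 0.36 in rosuvastatin against vehicle.

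The other 11 retinoic acid response genes tested held between 3 and 6 higher members in each pairwise comparison. Tgm2, a transglutaminase, differed by 0.28 ± 0.29 with rosuvastatin against vehicle, and Cyp26b1, another retinoic acid hydroxylase, by -0.74 ± 0.54 with GGOH against vehicle. Hoxb1 differed by -0.71 ± 0.34 in the combination against rosuvastatin, Lrat by -0.32 ± 0.18 in the combination against vehicle and Hic1 by 0.93 ± 0.41 in the combination against GGOH. Of the 13 genes of isoprenoid alcohol and prenyl group handling, Fdps, which makes farnesyl diphosphate, differed by 1.64 ± 0.51 with rosuvastatin against vehicle (edgeR adjusted p = 0.973) and by -0.96 ± 0.5 in the combination against rosuvastatin. Fntb, a farnesyltransferase subunit, differed by -0.82 ± 0.35 with GGOH against vehicle, and Maoa, a monoamine oxidase, by -0.46 ± 0.16 in the combination against GGOH and -0.36 ± 0.16 in the combination against vehicle.

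Across the 20 libraries, Adh4 and Adh5 varied together (Pearson r of log2 CPM = 0.73, Spearman 0.75; r = 0.7 without the 2 libraries farthest from the median of Adh4, and 0.66 for deviations from group means). Leaving out any 1 library gave r between 0.68 and 0.78. Adh1, which lies in the same cluster, had r = 0.13 with Adh5 and 0.00 with Adh4 on this scale, and 0.61 and 0.29 on log2 TPM. Adh5 and Rdh7 had r = 0.73 (Spearman 0.67; 0.53 without the 2 farthest libraries; 0.79 on log2 TPM). Rarb and Rdh7 had r = -0.55 on log2 CPM (-0.39 without the 2 farthest), and the sign turned on log2 TPM (0.26). Adh4 and Adh5 had r = 0.68 on log2 TPM, while Adh4 and Rdh7 went from 0.54 to 0.39. The highest pair on log2 TPM was Adh1 with Dhrs3 (0.81, against 0.2 on log2 CPM), and Adh1 also reached 0.73 with Rarb and 0.71 with Aldh3a2 there, so the pattern depended on the scaling. Cyp26a1 and Rarb, the 2 genes classed here as retinoic acid response genes, had r = -0.1. The libraries share tissue composition, depth and the mitochondrial and GC differences given above, so these values describe the libraries, with no p.

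**Figure D4:**
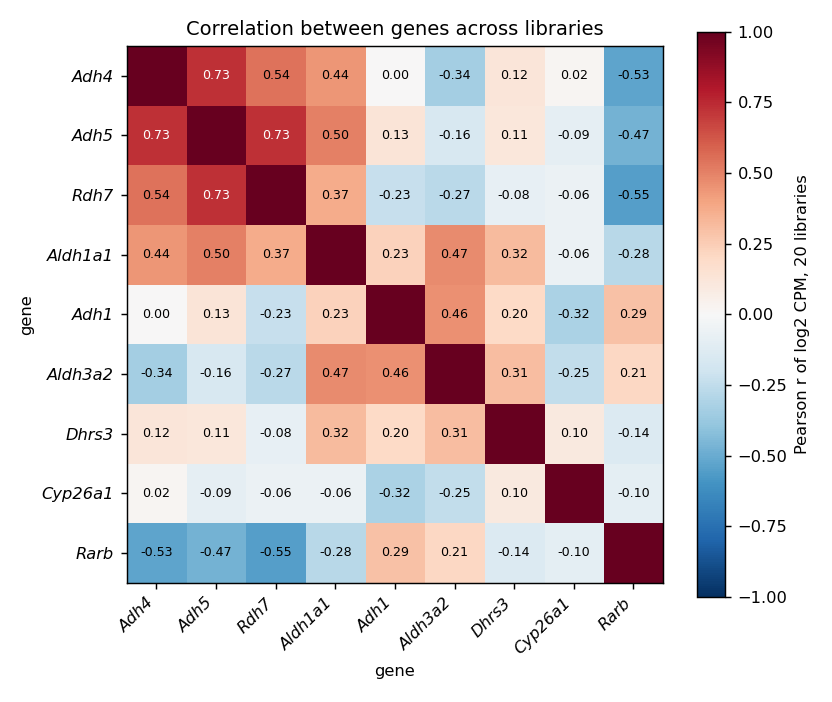
Pearson r between each pair of the 9 genes over the 20 libraries (log2 CPM), with both axes listing genes and colour running from -1 (blue) to 1 (red). Adh4, Adh5 and Rdh7 form the block of high values (0.54 to 0.73) on this scale, and Adh1 has 0.00 with Adh4 and 0.13 with Adh5; on log2 TPM these ranges are 0.39 to 0.79, and 0.29 and 0.61.

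Adh5 moved with library properties over the 20 libraries, given as description with no p. Its r was -0.79 with the mitochondrial share (-0.61 without combination mice 2 and 3), -0.61 with the GC skew and -0.91 with the mean of 8 sinusoidal endothelial markers (-0.86 without the 2 farthest libraries). Adh4 had -0.56, -0.49 and -0.76, Rdh7 -0.65, -0.6 and -0.69, and Aldh1a1 -0.15, -0.74 and -0.52 with the same 3 measures. Without combination mice 2 and 3, r with the mitochondrial share was -0.26 for Adh4, -0.34 for Rdh7 and -0.12 for Aldh1a1. Of the 9 marker lists compared, the sinusoidal endothelial list gave the r farthest from 0 for these 4 genes. The 3 adipocyte markers tested came next for 3 of them, with r = 0.59 for Adh5, 0.62 for Adh4 and 0.57 for Rdh7, and their part in the differences was not tested. With rosuvastatin averaged over GGOH, 1 of those 3 was higher and 2 lower (median -0.27), none past the threshold. The whole adipocyte list of 7 summed to 151 to 431 TPM with vehicle, 172 to 273 with rosuvastatin, 141 to 284 with GGOH and 119 to 297 with the combination. It includes Pck1, which is also on the periportal hepatocyte list used here, so the sum does not measure adipocytes alone. Of the 8 sinusoidal endothelial markers, 7 were higher and 1 lower with rosuvastatin averaged over GGOH, where 48.2% of all genes were lower. None passed an adjusted p of 0.05, and the median was 0.23 against 0.01 for all genes. The mean of these endothelial markers stood at 4.72 log2 CPM (4.5 to 5.09) in the 10 libraries with rosuvastatin and 4.49 (4.23 to 4.88) in the 10 without. No endothelial marker was at 0 in every library. Their summed level was 89.3 to 147 TPM with vehicle, 120 to 143 with rosuvastatin, 101 to 132 with GGOH and 105 to 143 with the combination. The part of the endothelial measure in the Adh4 and Adh5 differences was not tested.

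**Figure D5:**
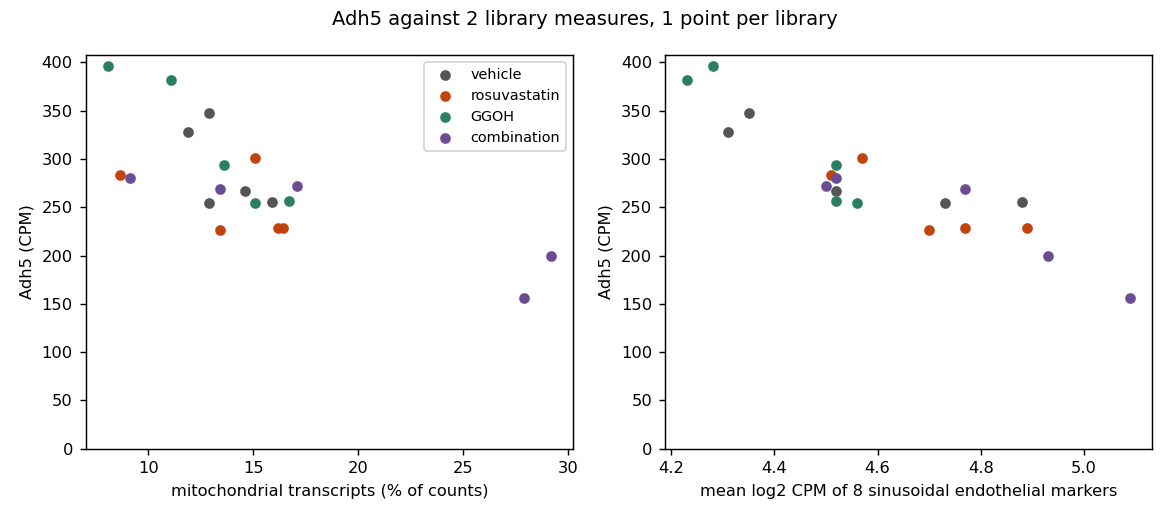
Adh5 in CPM (vertical axes, from 0) against the mitochondrial share of counts (left, percent) and against the mean log2 CPM of 8 sinusoidal endothelial markers (right), 1 point per library, coloured by group. Adh5 is lower where either measure is higher, with r = -0.79 on the left and -0.91 on the right.

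The genes whose log2 CPM most resembled each member over the 20 libraries, among 11259 named genes with a mean of at least 1 CPM, are given as description. Adh5 was closest to Psmc2 (r = 0.95) and Stx18 (0.94), and 302 genes had r of at least 0.8 with it. Rdh7 was closest to Cct5 and Etfb (both 0.93), with 254 genes at 0.8 or above. Adh4 was closest to AI182371 (0.91) and Fermt2 (0.89), and Aldh1a1 to Vnn1 (0.89) and Abhd3 (0.88). Adh1 was closest to Idh2 (0.85) and Immt (0.83), and Dhrs3 to Maob (0.8) and Car14 (0.74). Aldh3a2 was closest to Gclc (0.78) and Ugdh (0.76), Cyp26a1 to Qk (0.75) and Lats1 (0.72), and Rarb to Lsm14b (0.84) and Galnt10 (0.82). No gene reached 0.8 with Aldh3a2 or Cyp26a1.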

How the data were processed

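Poly(A) RNA from 20 livers was sequenced as paired 100-base reads. The submitters' processing notes name kallisto 0.44.0, bcl2fastq 2.19 and DESeq2 (no version or role given), with GRCm38. The authors deposited 1 table of estimated counts and 1 table of TPM, which the authors had scaled for length and depth. The deposited estimated counts were whole numbers. An entry with no gene name took 0.00801 to 0.0157% of counts and was left out. kallisto divides reads among similar transcripts, so paralogs can share counts.

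Genes passing edgeR's filterByExpr by group were tested in edgeR 4.0.16 (R 4.3.3) with TMM scaling and the quasi-likelihood test on a group-means model over all 20 libraries, at an adjusted p of 0.05 over all genes. Standard errors were derived from the F statistic. Correlations and permutations used log2 CPM with a prior count of 2. Gene coordinates are from GENCODE M21 on GRCm38, and promoters from RefSeq GRCm38.p6, in which all 9 genes matched. GC content was available for 98.4% of tested genes.

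The 9 genes were named in every comparison. From each list, any gene past the threshold was named, or else the gene with the smallest p in each of the 5 pairwise comparisons. One result under this rule is not reported here. For each of the 9, the 2 most correlated named genes were given. The genes and lists were chosen with earlier results of these data known. Alternatives were DESeq2 1.42.0, RLE size factors, no filter or a CPM filter of 1 in 5 libraries, limma 3.58.1 on log2(TPM + 1) and log2(TPM + 0.1), library quality weights, a replicate block, leaving out each library, leaving out 3 libraries together and GC and length offsets, the last chosen after seeing the data. The fits were tested on simulated data. Depth was 8548120 to 18373913 counts per library, so a gene near 1 CPM rests on few counts.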

Additional observations from a re-analysis of the deposited data

Results flagged for a closer look

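Of 36 groups of 5 values (9 genes in 4 groups), 1 held a sample far from the others, where chance flags about 1 in 20 groups, or 1.8 of 36. Cyp26a1 stood at 0.934 CPM in vehicle mouse 2, on 10 counts, while the other 4 vehicle mice lay between 1.82 and 2.15 CPM.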

How the results depend on the processing

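No gene of the 9 passed the threshold under any setting except Aldh1a1 with sample quality weights (1 member call). Genes called over the whole table: DESeq2 gave 2 for rosuvastatin against vehicle, 1 for the combination against rosuvastatin, 5 for the combination against vehicle, 4 for GGOH averaged over rosuvastatin (1 by edgeR) and 13 for rosuvastatin averaged over GGOH, against 0 by edgeR. No low-count filter and log2(TPM + 1) each gave 1 for the combination against rosuvastatin and 1 against vehicle, and log2(TPM + 0.1) gave 1 against vehicle. Quality weights gave 3 for GGOH averaged over rosuvastatin and 1594 for rosuvastatin averaged over GGOH. For GGOH averaged over rosuvastatin, the replicate block gave 0, as did leaving out vehicle 1 and combination 2 and 3. Leaving out single libraries gave 0 to 2 there, changing with vehicle 2, rosuvastatin 1, 2 and 4, GGOH 3 and 4 and combination 2, and 0 to 1 for the combination against rosuvastatin and against vehicle. The causes were not tested.

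Of 33 single-gene results, 9 had values that changed sign, all with differences under 0.2 in size. In rosuvastatin against vehicle, both TPM fits gave 0.02 for Adh5 and 0.02 for Dhrs3. There the median of all genes was 0.12 on log2(TPM + 1), against -0.02 in the main fit. In GGOH averaged over rosuvastatin, Adh5 was -0.01 with the replicate block, -0.0076 with GC and length offsets and -0.04 to 0.07 leaving out single libraries. There Dhrs3 was 0.0023 with no filter, 0.0044 and 0.005 on TPM, 0.05 with quality weights and -0.05 to 0.02 leaving out single libraries, and Rdh7 was 0.03 without 3 libraries and -0.09 to 0.02 without single ones. In rosuvastatin averaged over GGOH, the TPM fits gave 0.06 for Adh1, 0.03 for Dhrs3 and 0.03 for Rdh7. For that comparison the median of all genes was 0.08 on log2(TPM + 1), against 0.01 in the main fit. Adh1 was 0.0095 without 3 libraries and 0.02 with offsets. Aldh3a2 was -0.01 with quality weights, -0.03 without 3 libraries and -0.01 to 0.1 without single ones.

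Replicate numbers were treated as not pairing the mice, since the labels do not say what they mark. Of 30 same-numbered pairs, 11 had r above 0.1 (range -0.46 to 0.51), and 5 of 20 libraries correlated best with their own number. Such correlations cannot show whether mice of the same number shared a cage or a batch. Cyp26a1 (3 to 45 counts) and Rarb (11 to 68) are limited by depth.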
